A study of Mus musculus with 8 samples.

Results

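Autophagy machinery genes encode the proteins that start, build, load and deliver the autophagosome, the vesicle that carries cytoplasm to the lysosome. A fixed list of 50 of them was followed through YTHDF3 RNA immunoprecipitation sequencing (RIP-seq) of mouse embryonic fibroblasts (MEFs). A gene was counted when an enriched peak carried its name in the deposited peak lists. This was so for 33 of the 50 genes in at least 1 of the 4 lists and for 14 genes in all 4 (14.8% of all protein-coding genes were in all 4), against 8612 and 3692 genes named over the whole series. By role, the list held 11 initiation genes, 8 membrane supply and phosphoinositide genes, 15 conjugation genes, 9 cargo receptor genes and 7 genes of late steps, which are tethering and fusion with the lysosome.

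All groups were wild type MEFs of strain C57BL/6, isolated from embryos aged 13.5 days and used at passages 5 to 6. Untreated cells in normal medium were compared with cells kept for 2 h in nutrient-deprived medium, with 2 replicates of each condition. RNA bound to YTHDF3 was recovered with an antibody (IP), and inputs of polyA RNA were sequenced as well, so that 8 samples gave 4 peak lists. Each list carries the values of 1 input, assumed to match its IP in condition and replicate, and the labels do not say whether replicates were separate cultures. The antibody recovers YTHDF3 with any RNA attached to it, and no control antibody or YTHDF3-deficient sample was analysed here.

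YTHDF3 is a cytoplasmic reader of N6-methyladenosine (m6A), the most common internal modification of mRNA, and works with related YTH domain readers in translation and decay of methylated mRNA. In autophagy, the ULK1 kinase complex senses nutrient state and the class III phosphatidylinositol 3-kinase complex marks the site where the isolation membrane forms. Ubiquitin-like conjugation then attaches LC3 and GABARAP proteins to that membrane, receptors bring cargo to them, and tethers such as the HOPS complex join the closed vesicle to the lysosome. MEFs deprived of nutrients are a widely used model of this response.

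The lists held 17364 and 21943 kept peaks in normal MEFs and 23088 and 24701 after starvation, with an IP/input of at least 2 and a p under 0.0001. Between 8818619 and 19271667 IP reads and between 2507434 and 5157523 input reads fell inside them. They give no reads outside peaks, so the depth of the libraries is unknown and an absent peak does not show absent binding or an absent transcript. Of 9 fibroblast markers, 4 had an exonic peak, with 51985 input reads in all, and Pdgfra and Pdgfrb had one in all 4 lists. None of 4 epithelial markers had one, while 1 of 4 endothelial markers (Kdr, 13 input reads) and 1 of 4 macrophage markers (Csf1r, 1101 input reads) did. Peaks over strongly expressed fibroblast genes such as Col1a1, Fn1 and Vim were not in the lists, so the markers check the label in part. Whether the other cell types took part in any result below was not tested.

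The deposited gene name is that of the nearest promoter, and it was checked against the exons of the GENCODE annotation (release M21, build GRCm38, which is mm10). Of 499 peaks named after an autophagy gene, 417 (83.6%) lay over an exon of that gene, 58 lay only over an exon of another gene, and 24 lay over no exon. The other way round, 667 peaks lay over exons of the 50 genes, and 250 of these (37.5%) carried another gene's name. Epg5 had 55 exonic peaks named Siglec15, Zfyve26 had 33 named Rdh12, Ulk1 had 32 named Pus1, Tecpr1 had 25 named Bhlha15, Atg13 had 23 named Arhgap1 and Ambra1 had 21 named Chrm4. Counting by exon therefore changed which genes were found, and both counts are given. By exon, 28 of the 50 genes had a peak in at least 1 list and 13 had one in all 4. Of 21924 protein-coding genes, 7584 had a peak by name in at least 1 list and 6592 by exon. Among the same genes, 14.8% had a peak by name in all 4 lists and 13.7% had an exonic peak in all 4, against 14 and 13 of the 50 autophagy genes.

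**Figure D1:**
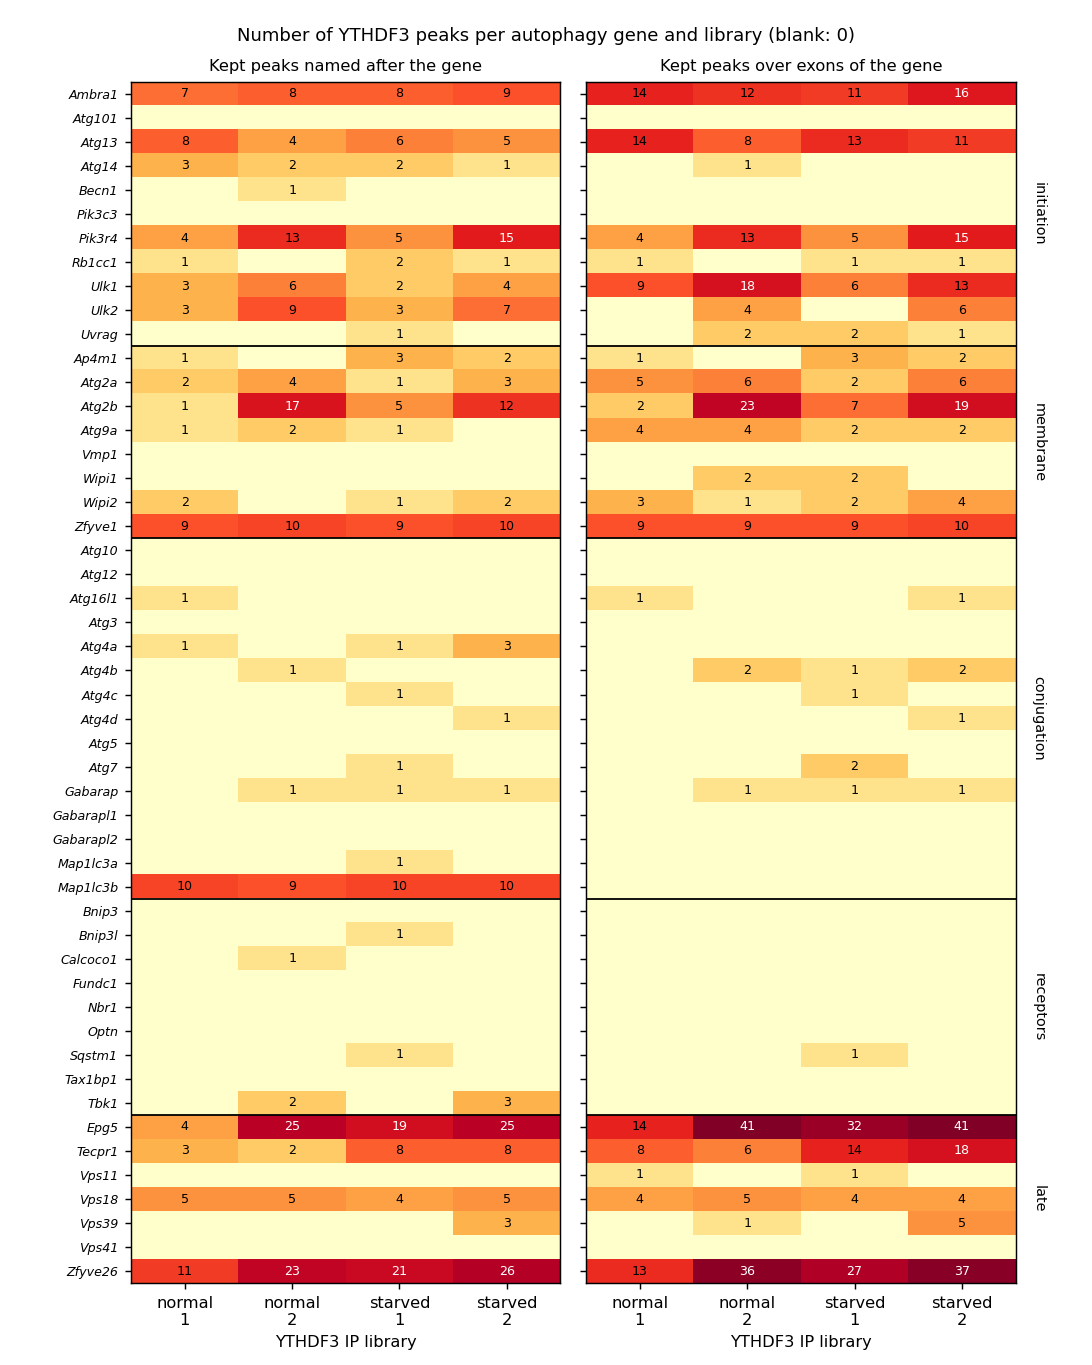
Number of kept YTHDF3 peaks in each IP library (columns) for each of the 50 autophagy genes (rows, grouped by role), by deposited name on the left and by exon overlap on the right; darker cells hold more peaks and blank cells hold 0. Map1lc3b has 9 or 10 named peaks in every library and 0 over its own exons, and the receptor block holds 1 exonic peak.

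Most initiation genes had peaks. Of the 11, 9 had a peak by name and 6 had one in all 4 lists, and by exon 8 had a peak and 4 (Ulk1, Atg13, Pik3r4 and Ambra1) had one in every library. They carried 201 exonic peaks. Over all 21924 protein-coding genes, 7584 had a peak by name and 6592 by exon in at least 1 list. Becn1, the scaffold of the phosphatidylinositol 3-kinase complex, had 1 named peak outside its exons, and neither Pik3c3, its catalytic subunit, nor Atg101, which stabilises ATG13, had any. The IP/input of a gene is the sum of IP values over its peaks divided by that of input values, with the input set to no less than 3.

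Ulk1, the kinase that starts the pathway, had an IP/input over exons of 2.19 and 2.73 in the normal libraries and 2.43 and 2.57 in the starved libraries. The starved values lay inside the normal range, and the log2 change was 0.15 in replicate 1 and -0.09 in replicate 2. Its peaks covered 60.3% and 81.9% of the mRNA in normal MEFs and 29.3% and 94.1% after starvation, so the starved values lay on both sides of the normal ones. In starved replicate 1 no base of its 3′ UTR was inside a peak. The region with the most IP reads, over exons 23 to 26 (chr5:110786871-110788460) and named Pus1 in the lists, held 522, 93, 1416 and 979 IP reads in normal 1, normal 2, starved 1 and starved 2, in that order. The called length of this region was 1290, 360, 1590 and 1420 bases in the same order, and the reads are not scaled for length or depth. Its IP/input was 2.13 and 2.33 in normal MEFs and 2.39 and 2.78 after starvation.

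Atg13, the adaptor subunit of the same complex, had an exonic IP/input of 2.85 and 2.27 in normal MEFs and 2.91 and 2.41 after starvation. Each replicate kept its own level, and the log2 changes were 0.03 and 0.09. Peaks covered 86.9% and 61.3% of its mRNA in normal MEFs and 85.4% and 78.3% after starvation. Its leading region, over the last exon with the stop codon and 3′ UTR (chr2:91674571-91676660) and named Arhgap1, held 869, 732, 2384 and 1424 IP reads over 230, 335, 303 and 415 input reads. Pik3r4, the regulatory subunit p150 that anchors the lipid kinase, had an IP/input of 2.50 and 2.69 in normal MEFs and 2.58 and 2.88 after starvation. Here too the groups overlapped, with log2 changes of 0.05 and 0.10. Its region common to all lists lay over the 5′ UTR in exon 1 (chr9:105642881-105643520), with IP/input values between 2.25 and 2.72.

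Ambra1 encodes a scaffold that positions the lipid kinase complex and links it to ULK1. Its exonic IP/input was 2.94 and 2.51 in normal MEFs and 2.95 and 2.79 after starvation, with log2 changes of 0.01 and 0.15. It had 8 regions that were called in all 4 lists, from the 5′ UTR to the 3′ UTR. The region with the most IP reads lay in coding exon 7 of 18 (chr2:91772161-91773940) and held 725, 826, 1667 and 1431 IP reads over 210, 355, 275 and 333 input reads. Its IP/input was 2.78, 2.33, 2.60 and 2.87, so the conditions overlapped. The central 200 bases of this region (chr2:91772951-91773150, plus strand, GRCm38) are printed because the region held the most IP reads of the purely coding regions of initiation genes, although its IP/input ranked at the 20.5 percentile of all regions, with GGAC, the core of the m6A motif, in capitals:
Ambra1: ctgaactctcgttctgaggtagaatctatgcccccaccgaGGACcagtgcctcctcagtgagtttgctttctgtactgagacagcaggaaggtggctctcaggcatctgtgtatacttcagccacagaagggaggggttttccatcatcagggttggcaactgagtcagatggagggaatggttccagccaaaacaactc

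The 5′ UTR region of Ambra1 in exon 1 (chr2:91730021-91730520) had a higher ratio in both starved libraries. It held 179 and 133 IP reads over 58 and 50 reads of input in the normal libraries. The starved libraries held 326 and 226 IP reads over 27 and 33 reads of input. The IP/input was 2.49 and 2.66 in normal MEFs against 5.18 and 4.57 after starvation, and the groups did not overlap. The input level, in reads per kb of called length per 1000000 reads in regions common to all lists, was 72.1 and 39.9 in normal MEFs and 27.8 and 25.8 after starvation, whereas the IP level was 62.5 and 36.9 against 53.2 and 37.7. The higher ratio thus went with a lower input. The log2 changes of 1.06 and 0.78 did not both reach 1.8-fold, and the edgeR quasi-likelihood test of the ratio gave a log2 difference of 0.88 with an unadjusted p of 0.01 and an adjusted p of 0.999. In coding exon 14 of the same gene (chr2:91886661-91887180, named Chrm4), the IP/input went the other way, from 6.45 and 4.0 to 2.66 and 2.33. Its normal libraries held 10 and 20 input reads.

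Other initiation genes were seen in part of the lists. Ulk2, the close relative of Ulk1, had 22 peaks by name in all 4 lists, of which 8 lay over its exons, and its exonic peaks were all in the replicate 2 libraries. There, the exonic IP/input was 3.22 in normal and 3.04 in starved MEFs. Its only region common to all lists lay over no exon (chr11:61869461-61870480) and held 13, 46, 38 and 57 IP reads over 0, 2, 0 and 10 input reads. Rb1cc1, which encodes the ULK1 partner FIP200, had 1 exonic peak in 3 lists, at 2.03 in normal replicate 1 and at 2.10 and 2.22 in the starved libraries. Uvrag, a subunit of the lipid kinase complex in later steps, had an exonic peak in 3 lists, with between 0 and 30 input reads. Atg14, which directs the complex to autophagy, had 8 named peaks in all 4 lists, but 7 of them lay over exons of the neighbour Fbxo34, and its single exonic peak had 0 input reads.

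**Figure D2:**
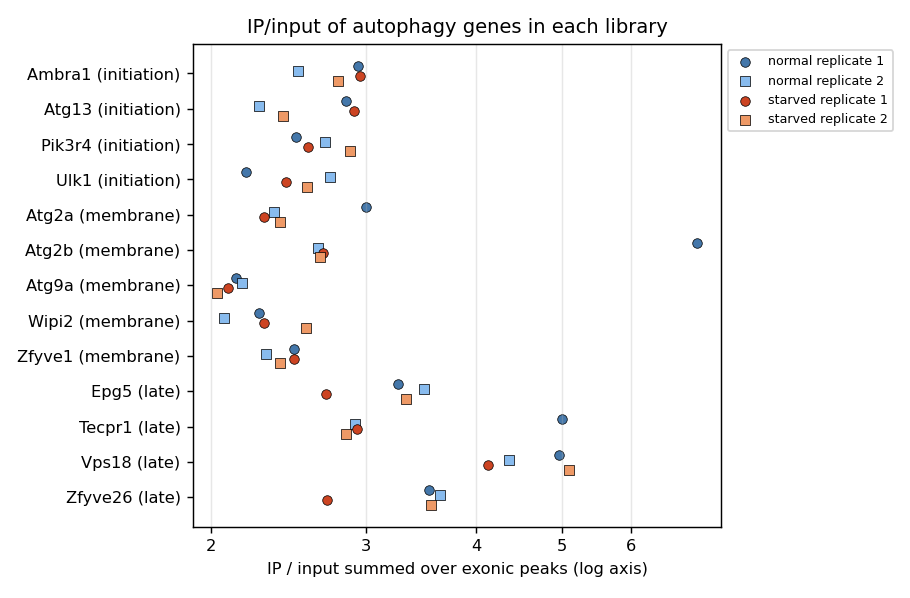
IP/input summed over exonic peaks (horizontal log axis) of the 13 autophagy genes with an exonic peak in all 4 lists, 1 point per library; blue points are normal and red or orange points are starved MEFs. Most genes lie between 2 and 4 in every library, Vps18 lies above 4, and Atg2b in normal replicate 1 stands at 7.13 over 6 input reads.

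Genes of membrane supply included the members with the lowest IP/input. Of the 8 genes, 6 had a peak by name and 7 by exon, and Wipi2, Atg2a, Atg2b, Atg9a and Zfyve1 had an exonic peak in all 4 lists. Vmp1, a lipid scramblase of the endoplasmic reticulum, had none. Wipi1, a phosphoinositide effector, had 2 exonic peaks in each of 2 lists, all named Arsg, and none of them touched its principal transcript. Ap4m1, a subunit of the AP-4 adaptor that sorts ATG9A, had an exonic IP/input of 3.63 in normal replicate 1 and of 3.11 and 2.99 in the starved libraries.

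Wipi2 recruits the ATG16L1 complex to the isolation membrane. Its exonic IP/input was 2.27 and 2.07 in normal MEFs and 2.30 and 2.57 after starvation. The starved values were above the normal ones by 0.02 and 0.31 on the log2 scale within replicates. The leading region covered the end of the coding sequence and the 3′ UTR (chr5:142666731-142669460, named Slc29a4), with 2252, 1927, 4965 and 3337 IP reads over 863, 929, 922 and 851 input reads. Its IP/input ranked at the 2.10 percentile of all regions, although it held more IP reads than any other region of Wipi2. Atg9a, the lipid scramblase of the seed vesicles, was lower still among genes, at 2.14 and 2.17 in normal MEFs and 2.09 and 2.04 after starvation. Of its 12 exonic peaks, 4 also lay over Ankzf1 on shared sequence, and the 2 genes cannot be told apart there.

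The lipid transfer proteins Atg2a and Atg2b form the bridge that feeds the growing membrane. Atg2a had an exonic IP/input of 3.0 and 2.36 in normal MEFs and 2.30 and 2.40 after starvation. Atg2b stood at 7.13 and 2.65 in normal MEFs and 2.68 and 2.66 after starvation. The high value rests on 53 IP and 6 input reads in normal replicate 1, where peaks covered 2.50% of the mRNA against 57.9% in normal replicate 2. In replicate 2 the log2 change of Atg2b was 0.01, and in replicate 1 it was -1.41. By name, too, Atg2b was past 1.8-fold lower in replicate 1 alone, at -0.94 on the log2 scale.

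Zfyve1 showed the clearest difference in amount between the conditions. It encodes DFCP1, the protein that marks the omegasome, the endoplasmic reticulum domain from which the isolation membrane grows. Its exonic peaks held 1404 and 1801 IP reads in normal MEFs and 9107 and 5840 after starvation. Input reads in the same peaks numbered 455 and 779 in normal MEFs and 1568 and 1622 after starvation. The IP/input was 2.49 and 2.31 in normal MEFs against 2.49 and 2.40 after starvation, with log2 changes of 0.00 and 0.05. IP and input reads were thus higher in starved MEFs while the ratio of their sums moved little. Peaks were kept only at an IP/input of at least 2, so this ratio could not fall below 2. By name, with the peak of highest IP/input in place of the sum, the mean log2 change of the ratio was -0.89. In normal replicate 2 that peak lay in an intron and held 24 IP reads over 0 input reads. Its ratio of 8 thus rests on the input floor of 3.

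For all 5 Zfyve1 regions, levels per kb and 1000000 reads were compared. In each of the 5, both starved libraries exceeded both normal libraries, in the IP and in the input, as they did in 12% of all regions for the IP and 13.5% for the input. The authors reported Zfyve1 as more enriched by YTHDF3 after starvation in this RIP-seq, so its higher IP is no independent result. The called length differed between libraries, so the levels were not taken over the same bases. In the region over exons 7 to 9 it was 300 and 380 bases in normal MEFs and 1210 and 1050 after starvation. The leading region spans exon 3, with the start codon (chr12:83594221-83595520). Its IP level was 77.2 and 60.5 in normal MEFs against 174 and 127 after starvation, and its input level was 97.1 and 83.0 against 182 and 162. The mean IP level was 2.18-fold and the mean input level 1.91-fold higher in starved MEFs. In edgeR, the log2 difference of IP reads per base was 1.13 ± 0.25 (SE) with an adjusted p of 0.154, that of the input was 0.93 ± 0.29 with an adjusted p of 0.236, and that of the ratio was 0.17. The differences therefore did not pass 0.05 over all 6531 regions with this test. Over the 5 regions the log2 difference ranged from 0.85 to 1.13 for the IP, from 0.93 to 1.17 for the input and from -0.24 to 0.17 for the ratio. With DESeq2, 3 of these regions passed in the IP, where 0.567% of all regions were higher and 2.01% lower. In edgeR, 0.0919% of all regions were higher in the IP, and no member region passed. In bulk RNA, more transcript per cell and more cells that express the gene cannot be told apart.

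**Figure D3:**
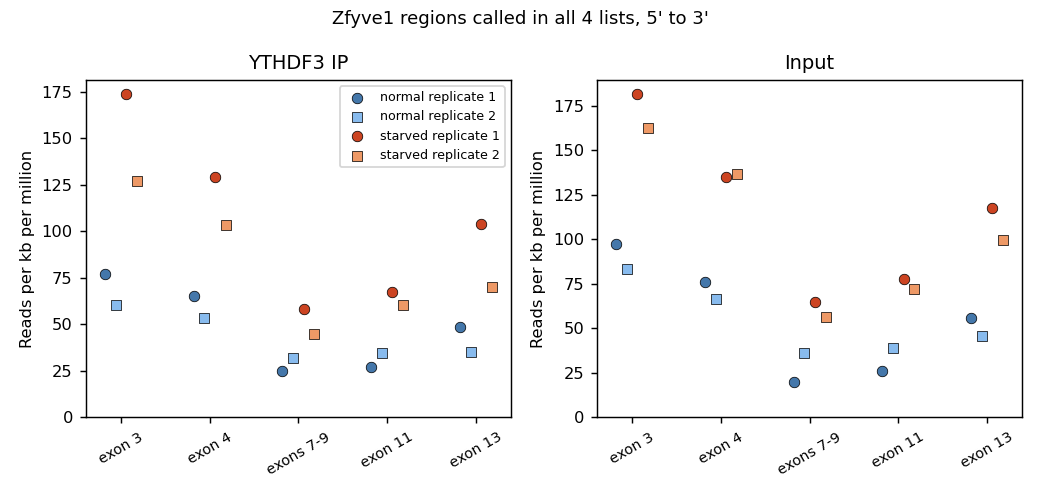
IP (left) and input (right) reads per kb of called length per 1000000 reads in common regions (vertical axes from 0) for the 5 Zfyve1 regions called in all 4 lists, in 5′ to 3′ order of exons, 1 point per library. Red and orange points of starved MEFs lie above the blue points of normal MEFs in every region and in both panels, for example at 174 and 127 against 77.2 and 60.5 for the IP in exon 3.

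The coding region of Zfyve1 in exon 4 of 13 (chr12:83574401-83575330) held 257 and 333 IP reads in normal MEFs and 1475 and 1039 after starvation. Its input reads numbered 84 and 145 in normal MEFs and 244 and 293 after starvation. The IP/input stayed between 2.30 and 2.59. Its central 200 bases (chr12:83574766-83574965, minus strand) held GGAC at 2 positions. They are printed because the region held the most IP reads of the purely coding regions of membrane genes, although its IP/input ranked at the 8.5 percentile, with GGAC in capitals:
Zfyve1: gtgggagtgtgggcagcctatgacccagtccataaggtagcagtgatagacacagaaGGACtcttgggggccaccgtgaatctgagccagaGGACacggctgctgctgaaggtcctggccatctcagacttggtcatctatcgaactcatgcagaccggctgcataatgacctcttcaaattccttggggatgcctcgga

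Conjugation genes had few exonic peaks. Of the 15, 9 had a peak by name, and 6 (Atg4b, Atg4c, Atg4d, Atg7, Atg16l1 and Gabarap) had one over their exons, none in all 4 lists. Over all 21924 protein-coding genes, 7584 had a peak by name and 6592 by exon in at least 1 list. An exonic peak in all 4 lists was found for 13.7% of them. Whether 0 of 15 differs from that share was not tested. Together the conjugation genes carried 14 exonic peaks, against 201 over the 11 initiation genes and 312 over the 7 late genes. Peaks were called on the genome, so an mRNA with many exons can hold many peaks, and these totals were not adjusted for that. Among late genes, Epg5, with 44 exons, had 128 peaks, and Vps18, with 5, had 17. Atg3, Atg5, Atg10, Atg12, Gabarapl1 and Gabarapl2, which encode enzymes and ubiquitin-like proteins of both conjugation reactions, had no peak by name or exon.

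The apparent exception was Map1lc3b, the gene of LC3B, the usual protein marker of autophagosomes. It had 39 peaks by name, at 10, 9, 10 and 10 per library, and 8 regions in all 4 lists. Yet 36 of these peaks lay over exons of the neighbouring gene Zcchc14 and none over an exon of Map1lc3b. The largest region (chr8:121598771-121602740) held 2441, 4324, 4730 and 5858 IP reads, with an IP/input of 3.05 and 3.22 in normal MEFs and 2.86 and 3.14 after starvation. These values describe sequence outside Map1lc3b, whose own 2532 base mRNA held no kept peak in any list.

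Among the conjugation genes with an exonic peak, Gabarap and Atg4b were found in 3 lists. Gabarap, an LC3 relative, stood at 2.71 in normal replicate 2 and at 2.65 and 2.56 in starved MEFs, over 51, 27 and 18 input reads. Atg4b, the main protease that primes LC3, stood at 2.78, 2.57 and 3.03 in the same libraries, and its 5 peaks were all named Dtymk. Atg16l1, the subunit that directs LC3 lipidation to the membrane, had 1 exonic peak in normal replicate 1 and 1 in starved replicate 2, both over the 3′ UTR. Atg7, the enzyme that activates both ubiquitin-like systems, had 2 exonic peaks over 7 input reads, in starved replicate 1 alone. Each of these genes lacked a peak in at least 1 normal library, so no change could be formed in both replicates. The remaining named peaks of this role were few. Atg4a had 5, all over exons of Col4a6 and with 0 input reads, and Map1lc3a had 1, over Pigu.

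Receptor genes had the fewest peaks of the 5 roles. Of the 9, 4 had a peak by name, beside 7584 of all 21924 protein-coding genes, and none had one in all 4 lists. In all, 1 peak lay over an exon of a receptor gene. That peak was over Sqstm1, which encodes the receptor p62, in starved replicate 1, with 17 IP reads and 0 input reads. It also lay over an exon of Mrnip, so the 2 genes cannot be told apart there. No base of the principal Sqstm1 transcript was inside a peak in any list. Tbk1, the kinase that phosphorylates receptors, had 5 named peaks, 4 of which lay over exons of Xpot. The named peak of the mitophagy receptor gene Bnip3l lay over Ppp2r2a, and that of Calcoco1 had 0 input reads and lay outside its exons. Nbr1, Optn, Tax1bp1, Bnip3 and Fundc1, which encode receptors for aggregates, mitochondria and other cargo, had no peak.

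Genes of late steps carried 312 of the 667 exonic peaks, of which Epg5, with 44 exons, held 128 and Zfyve26, with 42, held 113. Epg5, Zfyve26, Tecpr1 and Vps18 had an exonic peak in all 4 lists, Vps11 and Vps39 in 2 lists each, and Vps41 in none. Vps11, Vps18, Vps39 and Vps41 all encode subunits of the HOPS tether, so the subunits of this complex differed widely in peaks.

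Vps18, a core subunit of that complex, had the highest exonic IP/input of the 13 genes with a peak in all lists, apart from single libraries of Atg2b and Tecpr1. It stood at 4.96 and 4.36 in normal MEFs and 4.13 and 5.10 after starvation. The change was -0.27 in replicate 1 and 0.23 in replicate 2 on the log2 scale, so its direction differed. Averaged over the libraries, this placed it at the 86.0 percentile of all genes with an exonic peak in all lists. Its peaks covered 100% and 98.3% of the mRNA in normal MEFs and 99.2% and 99.4% after starvation. The leading region in coding exons 3 and 4 (chr2:119292471-119295020) held 3053 and 2503 IP reads in normal MEFs and 8452 and 5853 after starvation, over 539, 563, 863 and 718 input reads. Its IP level was 184 and 116 in normal MEFs and 270 and 189 after starvation, so the lowest starved value was close to the highest normal value. Its central 200 bases, in exon 4 of 5 (chr2:119293646-119293845, plus strand), held GGAC at 3 positions and are printed because the region held the most IP reads of the purely coding regions of late genes, with GGAC in capitals:
Vps18: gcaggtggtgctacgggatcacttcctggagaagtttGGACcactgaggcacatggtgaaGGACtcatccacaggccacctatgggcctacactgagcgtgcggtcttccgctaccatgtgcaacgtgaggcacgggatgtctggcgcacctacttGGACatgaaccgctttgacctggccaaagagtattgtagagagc

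Epg5 and Zfyve26 encode very long mRNAs, of 9660 and 9391 bases. Epg5, a tether that gives fusion its specificity, had 14 and 41 exonic peaks in normal MEFs and 32 and 41 after starvation. Its IP/input was 3.26 and 3.49 in normal MEFs and 2.70 and 3.33 after starvation. In both replicates the starved value was lower, by 0.27 and 0.07 on the log2 scale, and the starved and normal ranges overlapped. All of its 11 common regions lay in coding exons, the last of them reaching into the 3′ UTR.

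Zfyve26, which encodes spastizin, a protein needed to re-form lysosomes after autophagy, had 13 and 36 exonic peaks in normal MEFs and 27 and 37 after starvation. Its IP/input was 3.54 and 3.64 in normal MEFs and 2.71 and 3.56 after starvation. Of its 8 common regions, 6 had IP levels in both starved libraries above both normal libraries, and 5 had such input levels. Over all regions the shares were 12% and 13.5%. The authors reported Zfyve26, too, as more enriched by YTHDF3 after starvation in this RIP-seq, so its higher IP is no independent result. The region in coding exon 15 (chr12:79276061-79276580) had an IP/input of 4.38 and 3.89 in normal MEFs and 2.63 and 2.57 after starvation, over 16, 26, 35 and 47 input reads. The region in exon 23 (chr12:79265471-79266000) was the only one of the member regions to pass a 1.8-fold change in both replicates, as 0.337% of all regions did in the lower direction. It held 36 and 19 IP reads in normal MEFs and 78 and 77 after starvation, over 2 and 0 input reads in normal and 11 and 21 after starvation. With the input set to no less than 3, the ratio was 10.8 and 6.33 in normal MEFs. Without that floor it was 14.5 in normal replicate 1, with a 95% exact interval from counting error alone of 3.74 to 124, and 0 input reads in normal replicate 2 gave a lower bound of 4.67 on the same basis. In starved MEFs the ratio was 3.04 and 2.44. More IP reads were found in starved than in normal MEFs, so the lower ratio went with a higher input.

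Tecpr1 encodes a protein that binds the ATG12–ATG5 conjugate and assists fusion with lysosomes. Its IP/input was 5.00 and 2.92 in normal MEFs and 2.93 and 2.85 after starvation. The first value rested on 59 input reads. Its exonic peaks numbered 8 and 6 in normal MEFs and 14 and 18 after starvation, and covered 21.1% and 22.7% of the mRNA in normal MEFs against 61.4% and 64.2% after starvation.

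**Figure D4:**
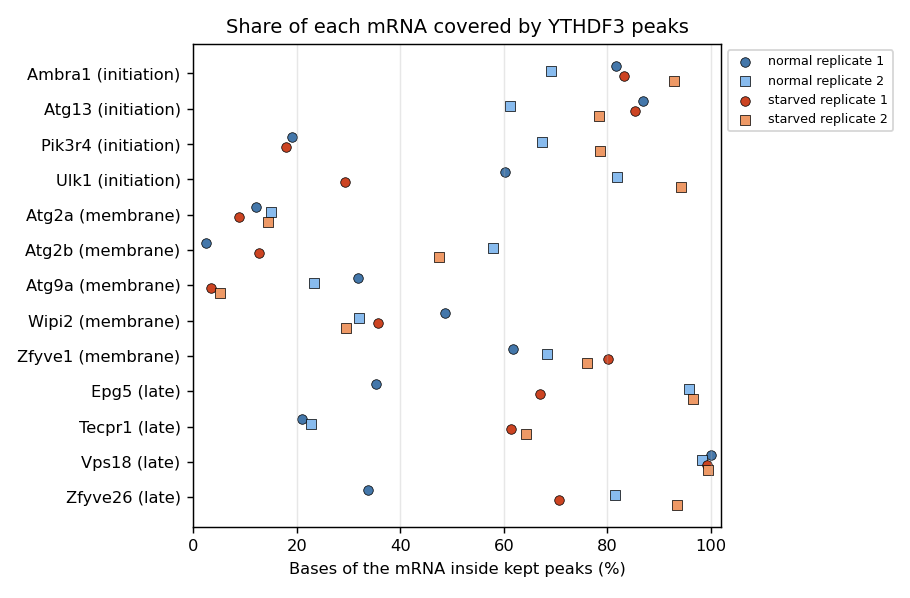
Share of the bases of each principal mRNA that lay inside kept peaks (horizontal axis, %), for the 13 autophagy genes with an exonic peak in all 4 lists, 1 point per library. Tecpr1 moves from 21.1% and 22.7% in normal to 61.4% and 64.2% in starved MEFs, while Vps18 stays at 98.3% or more and Atg2b splits by replicate.

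Cover of the mRNA by peaks gave a further view, which still depends on the ratio, because a peak was kept only at an IP/input of at least 2. Over the 13 genes, the median share of the mRNA inside peaks was 35.3% and 67.3% in normal MEFs and 61.4% and 78.3% after starvation. Over all 2998 genes with an exonic peak in all lists it was 28.1% and 36.6%, then 39.4% and 44.9%. Cover was above both normal libraries in both starved libraries for Zfyve1, Tecpr1 and Ambra1, 3 of 13, against 25.9% of all such genes. It was below them in both for Atg9a, 1 of 13, against 6.2% of all. Atg9a went from 31.9% and 23.4% to 3.43% and 5.23%. The starved lists hold more peaks over the whole series, and the part of this in the cover was not tested.

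At the level of genes, no change of the IP/input ratio was called. Only peaks with an IP/input of at least 2 entered the ratio, so it could not fall far in genes close to that bound. By name, no gene of the 14 passed a 1.8-fold change in both replicates in either direction, against 1.03% of all 3692 genes higher and 0.704% lower in starved MEFs. By exon none of 13 passed, against 0.7% higher and 0.734% lower. Over the 13 genes the median log2 change was -0.03 in replicate 1 and 0.02 in replicate 2, beside -0.04 and 0.04 over all genes. In 5 of them the ratio was higher in both starved libraries within replicate, in 4 lower, and in 4 the replicates had opposite signs. Opposite signs were found in 45.9% of all genes. For initiation genes by exon the medians were 0.04 and 0.09, for membrane genes -0.03 and 0.02, and for late genes -0.33 and -0.03. Conjugation and receptor genes had no gene with an exonic peak in all lists, so no such median exists for them. The signs of these changes depended on how a gene was summarised: with the peak of highest IP/input in place of the sum, the mean change of 7 of the 14 genes by name turned sign, and again none passed 1.8-fold in both replicates.

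Single regions were compared in the same way. Peaks of the 4 lists were merged where they overlapped, and 6531 regions were called in all 4 lists, 39 of them named after an autophagy gene and 48 over their exons. No region was called higher (0.475% of all regions), and 1 region, that in Zfyve26 exon 23, was called lower (0.337% of all). That call was lost when peaks were kept at an IP/input of at least 4 or merged at 50% reciprocal overlap, and a single replicate would have called 5 regions (replicate 1) or 6 regions (replicate 2). Both replicates moved the same way in 19 of the 39 regions (48.7%), beside 52.7% of all regions. With edgeR no member region passed an adjusted p of 0.05 in the ratio, where 0.0153% of all regions were higher and 0% lower. At an unadjusted p under 0.05, 1 was higher and 1 lower (82 and 101 of all 6531 regions), and DESeq2 also passed none.

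In the IP reads alone, edgeR passed no member region, against 0.0919% of all regions higher and 0.75% lower. DESeq2 passed 3, and at an unadjusted p under 0.05 in edgeR 5 were higher, all in Zfyve1, and none lower (183 and 461 of all regions). In the input, edgeR and DESeq2 passed none (0.23% of all regions higher and 0.995% lower in edgeR), and 7 were higher and 1 lower at an unadjusted p under 0.05 (185 and 340 of all regions). The IP levels of both starved libraries were above both normal libraries in 15 of 39 regions and below in 2, against 12% and 27.4% of all regions. For the input the counts were 13 above and 4 below, against 13.5% and 24.5%. By exon, 13 of 48 regions were above and 3 below in the IP, and 17 above and 3 below in the input. The median log2 difference of the 39 regions was 0.24 in the IP and 0.31 in the input, beside -0.10 and -0.08 over all regions, and -0.02 in the ratio, the same as over all regions. Of these 39, 5 belong to Zfyve1, 4 to Vps18 and 8 lie in Zcchc14, so they are not 39 independent values. By exon, Zfyve1 held 5 and Zfyve26 held 6 of the 13 regions above in the IP. The authors reported both genes as more enriched by YTHDF3 after starvation in this RIP-seq. The counts above are thus not independent of how the genes were chosen.

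**Figure D5:**
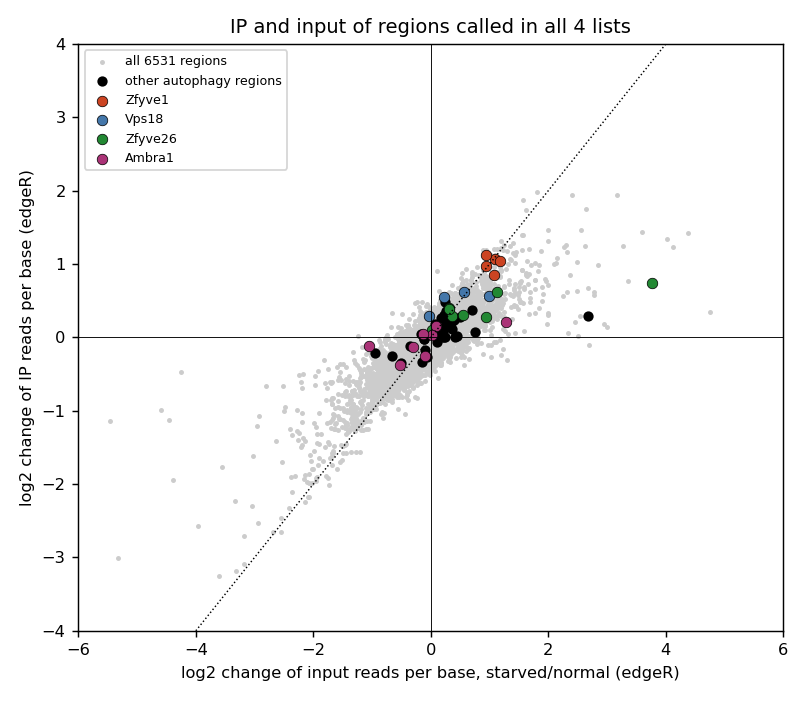
Log2 difference between starved and normal MEFs of input reads per base (horizontal axis) and of IP reads per base (vertical axis), both from edgeR, for the 6531 regions called in all 4 lists (grey) and the autophagy regions by name or exon (black, or coloured for 4 genes); the dotted line marks equal differences and 7 regions lie outside the axes. The 5 Zfyve1 regions lie near the line at 0.85 to 1.13 in the IP, and the Zfyve26 region in exon 23 lies far to the right of it.

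Length and base composition of the mRNA were not used by the rule and are given as a description. The 13 genes with an exonic peak in all lists had a median mRNA length of 5106 bases and a median coding length of 3498. The 15 genes with an exonic peak in 1 to 3 lists had medians of 3729 and 1476, and the 22 without one had medians of 2573 and 884. Over all protein-coding genes the mRNA lengths followed the same order, at 4734, 3401 and 2039 bases. So did their coding lengths, at 2038.5, 1560 and 966 bases. GGAC occurred at a median of 5.43, 4.83 and 3.18 per kb in the mRNAs of the 3 groups of autophagy genes, and at 4.38, 4.26 and 3.77 per kb over all genes. GC content was 54.1%, 50.8% and 44.9% in the autophagy genes, and 51.6%, 50.7% and 48.2% over all genes. LC3, GABARAP and ATG12 mRNAs have short coding sequences, of 351 to 423 bases in those genes, whereas Zfyve26 and Epg5 have the longest coding sequences of the 50. The medians were not adjusted for length or RNA level, and the level of each RNA outside peaks is not in the lists.

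GGAC was searched on the strand of the assigned gene in the central 200 bases of each common region. By name, some regions lie outside the exons of that gene, such as the 8 named Map1lc3b that lie in Zcchc14. For these the strand searched need not be the transcribed one. It was found in 29 of the 39 regions by name (74.4%, 95% Wilson interval 58.9% to 85.4%) and in 34 of 48 by exon (70.8%), beside 61.3% and 61.5% of all such regions. In the central 100 bases the share by name was 46.2%, beside 38.6%. Regions of 1 gene share their mRNA, and the interval takes them as independent.

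For comparison, 26 other autophagy genes outside the 50 were read in the same way. Of these, 16 had a peak by name and 14 by exon, and 4 had an exonic peak in all 4 lists. These were Rubcn, a negative regulator of the lipid kinase complex, Vps33a, a HOPS subunit, Plekhm1, an adaptor for fusion, and Wdfy3, a scaffold for aggregate clearance. None of the 4 passed a 1.8-fold change, and their log2 changes lay between -0.19 and 0.13.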

How the data were processed

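The members and gene lists were chosen with earlier results of these data known. The authors trimmed paired-end reads with Trimmomatic, aligned them to mm10 (TopHat2 2.0.13), called peaks of each IP against an input with diffReps and named them with HOMER. The libraries were made with a directional kit, and whether peaks were counted by strand is not given in the sources used here. The authors deposited, for each peak, IP and input values as a signal (reads multiplied by 1 factor per library); the factors of normal replicate 2 are 1, so its deposited values are counts. Deposited p-values of diffReps and the ratio of the deposited IP and input values were used to keep peaks (IP/input of at least 2 and p under 0.0001). Dividing the signal by its factor, estimated from the smallest steps between values, gave whole reads for 100% of values. The lists do not identify their input, so each was assumed to come from the matching culture. Ratios use the deposited values with an input of at least 3.

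Peaks overlapping by 1 bp were merged; the IP/input of a region is that of its highest peak. For regions present in every list, edgeR 4.0.16 was used (quasi-likelihood, TMM, Benjamini-Hochberg over all 6531 regions), with a term per culture for the ratio and called length as offset for IP and input; DESeq2 1.42.0 was an alternative. The edgeR fits, the merging and the motif search were tested on simulated data, the IP and input fits without the length offset. Levels per kb and 1000000 reads use the TMM library size. Exons and mRNAs came from GENCODE M21, with 1 principal transcript per gene. Named with values were genes with a region in all 4 lists, genes called in any test, and the region with most IP reads; other single genes were named after their values were seen. Alternatives covered the peak thresholds, naming, overlap, call rule, scaling, filters, tool, replicate block and leaving out each library. Python 3.11.15, pandas 2.3.3, numpy 2.4.6, scipy 1.17.1, pysam 0.24.0, matplotlib 3.10.9 and R 4.3.3 were used. The labels do not say whether replicates were separate cultures, so p-values measure the spread between these samples, and intervals cover counting error only. With 2 samples per condition no permutation test can pass 0.05.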

Additional observations from a re-analysis of the deposited data

How the results depend on the processing

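With an IP/input of at least 4, 6 genes kept a named peak in all 4 lists (14 at 2), initiation genes fell to 2, and no region was called. By exon, 0 conjugation genes had a peak in all lists. Leaving out 1 replicate gave 0 to 1 called genes (Atg2b lower, without replicate 2) and 5 to 6 called regions. A 1.5-fold cutoff called 3 regions (1 of Ambra1 higher, 2 of Zfyve26 lower), and 50% reciprocal overlap called 0. For IP reads, DESeq2 passed 3 regions of Zfyve1 and 50% reciprocal overlap passed 1. For the input, 50% reciprocal overlap passed 1. Fits that leave out 1 library have 1 sample in a group, so their counts are not given. GGAC was in 46.2% of the central 100 bases.

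Replicate numbers are shared between the conditions, and the difference of replicate 2 and 1 correlated between them (r = 0.28 for the ratio, 0.45 for IP and 0.29 for input, across regions), but with 2 pairs and no label of a shared batch the numbers do not establish pairing. The replicate block passed 4 regions in the IP and 4 in the input (3 of Zfyve1 and 1 of Vps18 in each; edgeR adjusted p of 0.0131 and 0.00824 for Zfyve1 exon 3) and 0 in the ratio, against 84 higher and 191 lower of all 6531 regions in the IP and 92 and 202 in the input; without the replicate block the 1.8-fold rule called 2 regions (Ambra1 higher, Zfyve26 lower). Counting by exon in the edgeR fits, roles under other peak sets and leaving out 1 list were chosen after seeing the data. No called value turned sign. Among uncalled values, 9 of 67 gene and 41 of 462 region values turned sign under an alternative. With the peak of highest IP/input, 7 of 14 genes did, among them Zfyve1 (0.02 to -0.89), Pik3r4 (0.07 to -0.57), Tecpr1 (-0.38 to 0.40), Epg5 (-0.13 to 0.37) and Vps18 (-0.02 to 0.64), and with a floor of 3 recovered input reads Ulk2 did (0.10 to -0.13). Reads outside peaks are not in the lists, which limits all values with few input reads.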
